A study of Homo sapiens with 33 samples.

Results

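A set of 9 genes of the proneural and ventral neural programme were followed through human embryonic stem cells (ESCs) with and without EZH2, the enzyme of Polycomb repressive complex 2 (PRC2). They were taken by name: the basic helix-loop-helix (bHLH) genes OLIG1, OLIG2, OLIG3, NEUROG1, NEUROG2, NEUROD1 and ATOH1, and the homeobox genes NKX2-2 and NKX6-1. All 9 were present among the 35805 genes of the RNA table and among the 35683 gene names of the ChIP table, where they hold 14 of 153958 promoter windows. The cells were of the H9 line, an established human ESC line, sorted for the surface marker SSEA4, and of 4 genotypes: EZH2+/+, EZH2-/+, EZH2-/-, and EZH2-/- +EZH2, in which doxycycline (DOX) switched on an EZH2 transgene. EZH2-/+ ESCs came from targeting an early exon with CRISPR/Cas9, and EZH2-/- ESCs from targeting an EZH2-/+ clone a second time while the transgene was on. Both are therefore clonal lines, and EZH2-/- ESCs were analysed with DOX withdrawn. RNA-seq had 3 libraries per genotype, and ChIP-seq measured 4 histone marks (H3K27me3, H3K27ac, H3K4me1 and H3K4me3) beside input in every genotype and EZH2 in EZH2+/+ ESCs alone. The RNA libraries are numbered 1 to 3 in every genotype. The study describes them as biological replicates, and the labels do not name the cultures they came from, so p values measure the spread between these libraries.

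PRC2 places H3K27me3, a mark of silent developmental promoters. In ESCs many such promoters also carry H3K4me3, the mark of active or poised start sites, whereas H3K27ac accompanies active promoters and enhancers. NEUROG1, NEUROG2, NEUROD1 and ATOH1 encode proneural factors, which commit progenitors to a neuronal fate by binding DNA with ubiquitous bHLH partners. NKX2-2, NKX6-1 and OLIG2 encode factors that respond to Sonic hedgehog and divide the ventral neural tube into progenitor domains, OLIG1 and OLIG2 are also needed for oligodendrocytes, and OLIG3 marks dorsal progenitors.

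Reads on genes ranged from 16587860 to 36589089 per RNA library, so that 3 reads, used as the floor of detection, correspond to 0.0528 to 0.120 RPM (reads scaled to the mapped reads of the library). EZH2 itself fell in EZH2-/- ESCs, both against EZH2+/+ ESCs (log2 fold change -2.68, adjusted p = 5.1e-06, limma) and against EZH2-/- +EZH2 ESCs (-4.91, adjusted p = 1.2e-08, limma). With the transgene on, EZH2 RNA was not at the EZH2+/+ level but above it (2.23, adjusted p = 3.8e-05, limma). The 8 pluripotency markers summed to 2305 to 2950 RPM per library in EZH2+/+ ESCs, 3180 to 3763 in EZH2-/+, 3484 to 3928 in EZH2-/- and 3434 to 3931 in EZH2-/- +EZH2 ESCs, and none of them was at 0. Each histone and input value is given as 1 column per genotype, so ChIP differences have no replicate check. The steps between the values are those of a mean of log2 values over 2 libraries, whereas the study's methods give another number of replicates, and which libraries were averaged was not resolved. Reads per ChIP library below rest on this reading of the steps. Depth per ChIP library was 9.11 to 15.1 M reads for H3K27me3 but only 3.43 M for H3K4me3 in EZH2+/+ ESCs, against up to 17.4 M in the other genotypes.

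The 9 genes split into 5 with enough RNA to test and 4 at or near the limit of detection, and no call was shared by the comparisons. Genes whose mean over the 12 libraries reached 0.1 RPM were tested with limma on log2(RPM + 0.1), and a gene was called at a Benjamini-Hochberg adjusted p under 0.05 over all 20608 genes tested. OLIG1, OLIG2, OLIG3, ATOH1 and NKX6-1 passed this filter, and NKX2-2, NEUROG1, NEUROG2 and NEUROD1 did not. Between EZH2-/- and EZH2-/- +EZH2 ESCs, 0 of the 5 genes were called, against 3.15% of all genes tested (650 genes, and 3460 at an unadjusted p under 0.05). OLIG1 was the 1 gene of the 5 with an unadjusted p under 0.05, and limma voom on recovered reads called none of them either. Between EZH2-/- and EZH2+/+ ESCs, ATOH1 alone of the 5 was called, against 31.4% of all genes (2593 higher and 3870 lower). Between EZH2-/+ and EZH2+/+ ESCs none was called, against 1.15%, with OLIG3 the single member at an unadjusted p under 0.05. Between EZH2-/- +EZH2 and EZH2+/+ ESCs, OLIG3 alone was called, against 10.3% (701 genes higher and 1422 lower). With median-ratio scaling in place of RPM the median change of all genes went from -0.13 to -0.01 in EZH2-/- and from -0.15 to -0.01 in EZH2-/- +EZH2 against EZH2+/+ ESCs, and the split of calls turned to 3378 higher and 2826 lower and to 1030 and 877. In EZH2-/+ ESCs the split of 37 and 199 became 57 and 125. The number of members called was the same under both scalings in all 4 comparisons. These last 3 comparisons share the EZH2+/+ libraries, and the first shares the EZH2-/- libraries with the second.

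**Figure D1:**
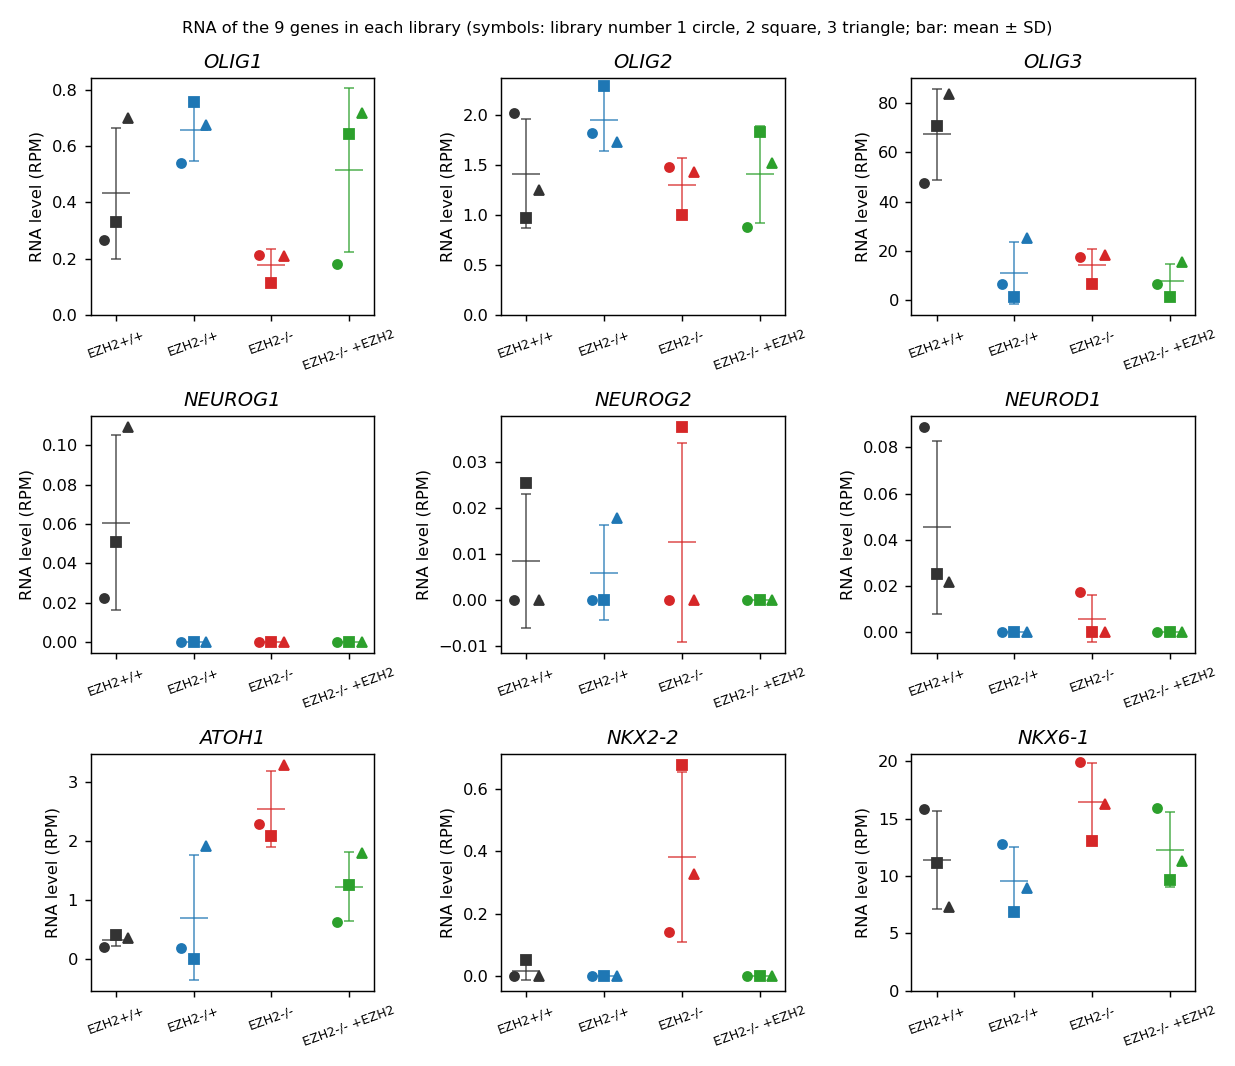
RNA level of each of the 9 genes (RPM, y axis, linear and on its own scale per gene) in the 3 libraries of each genotype (x axis). Circles, squares and triangles are libraries 1, 2 and 3, and the horizontal line with its bar is the mean ± SD; OLIG3 was high in all EZH2+/+ libraries, ATOH1 was highest in the EZH2-/- libraries, and NKX2-2 had more than 3 reads in the EZH2-/- libraries alone.

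OLIG3 (chromosome 6, 137492202 to 137494250, GRCh38) stood highest in EZH2+/+ ESCs. Its level was 47.5, 70.5 and 83.8 RPM in EZH2+/+ libraries 1, 2 and 3, and 17.6, 6.74 and 18.3 RPM in the EZH2-/- libraries. In EZH2-/+ ESCs it was 6.64, 1.45 and 25.5 RPM, and in EZH2-/- +EZH2 ESCs 6.48, 1.58 and 15.5 RPM. All EZH2+/+ libraries lay above all others, and in each of the 3 mutant genotypes library 2 was the lowest and library 3 the highest. The means were 67.3 ± 18.4 RPM (SD, n = 3), 11.2 ± 12.6, 14.2 ± 6.47 and 7.86 ± 7.06 RPM for these 4 genotypes in the order EZH2+/+, EZH2-/+, EZH2-/-, EZH2-/- +EZH2.

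On the log2(RPM + 0.1) scale OLIG3 was lower in EZH2-/- +EZH2 than in EZH2+/+ ESCs by the fitted difference -3.56 (SE 0.90, adjusted p = 0.026, limma), a call. The difference was -3.35 (SE 0.90, adjusted p = 0.13, limma) for EZH2-/+ and -2.33 (SE 0.90, adjusted p = 0.066, limma) for EZH2-/- against EZH2+/+ ESCs, and neither passed. With the library number as a block in the same limma fit, the adjusted p was 0.0093 for EZH2-/+ and 0.0056 for EZH2-/- ESCs, so that both passed, where 2.16% and 28% of all genes were called lower. The EZH2-/- difference also passed with a pseudocount of 1 RPM (adjusted p = 0.044, limma) and in a fit of only the 2 groups (adjusted p = 0.0017, limma). It passed with limma voom as well (adjusted p = 0.031) and without the libraries numbered 3 (adjusted p = 0.041, limma). It did not pass when any 1 of its 6 libraries was left out (adjusted p of 0.092 to 0.21, limma). Without EZH2-/+ library 3, which was the highest of its group, the EZH2-/+ difference was -4.34 (adjusted p = 0.017, limma). Without EZH2-/+ library 2, the lowest, it was -2.32 (adjusted p = 0.40, limma), and the other left-out libraries gave adjusted p of 0.24 to 0.39. The call in EZH2-/- +EZH2 ESCs was lost when any 1 of the EZH2+/+ libraries or of EZH2-/- +EZH2 libraries 1 and 2 was left out (adjusted p of 0.064 to 0.12, limma). Against EZH2-/- +EZH2 ESCs, OLIG3 in EZH2-/- ESCs differed by 1.23 (SE 0.90, adjusted p = 0.54, limma), with overlapping libraries.

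Of 10 other neural progenitor markers, SOX1, PAX6 and FABP7 were among those highest in EZH2+/+ ESCs, but the list as a whole was not. SOX1, an early neural plate gene, was at 7.41 ± 3.39 RPM (SD, n = 3) in EZH2+/+ and 0.0162 ± 0.0150 RPM in EZH2-/- ESCs (log2 fold change -5.89, adjusted p = 1.2e-05, limma). PAX6, a regulator of neural and eye progenitors, was at 6.65 ± 2.85 and 1.07 ± 0.640 RPM (-2.57, adjusted p = 0.0023, limma). FABP7 was at 6.31 ± 0.493 and 2.47 ± 0.893 RPM (-1.37, adjusted p = 0.0064, limma). ZIC1 was at 1.48 ± 0.847 and 1.38 ± 0.944 RPM (adjusted p = 0.91, limma), and at 0.145 ± 0.0485 RPM in EZH2-/- +EZH2 ESCs. It was the 1 marker called in EZH2-/- against EZH2-/- +EZH2 ESCs (2.42, adjusted p = 0.039, limma), where 2.63% of all genes were called higher. Over the 10 markers, 1 rose and 3 fell among 8 tested in EZH2-/- against EZH2+/+ ESCs, where 12.6% of all genes were called higher and 18.8% lower. In EZH2-/- +EZH2 ESCs 3 fell and in EZH2-/+ ESCs 1 fell, where 6.9% and 0.966% of all genes were called lower. The median change of the list was 0.14, -0.59 and -0.73 in these 3 comparisons, and that of all genes -0.13, -0.15 and -0.09. The summed level of the list ran from 242 to 360 RPM per library in EZH2+/+ ESCs, 253 to 330 in EZH2-/+, 368 to 410 in EZH2-/- and 250.0 to 368 in EZH2-/- +EZH2 ESCs. HES5 was at 0 in EZH2-/- +EZH2 and EZH2-/+ ESCs. The part of such cells in the OLIG3 level was not tested, and in bulk RNA fewer cells that express a gene and less RNA per cell cannot be told apart.

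OLIG2 (chromosome 21, 33025845 to 33029196), the motor neuron and oligodendrocyte progenitor factor, was low in all genotypes and was called in no comparison. It was measured at 2.02, 0.964 and 1.25 RPM in EZH2+/+ libraries 1 to 3, 1.81, 2.29 and 1.73 RPM in EZH2-/+, 1.48, 0.995 and 1.42 RPM in EZH2-/-, and 0.874, 1.82 and 1.52 RPM in EZH2-/- +EZH2 ESCs. All groups overlapped except that the EZH2-/+ libraries lay above the EZH2-/- libraries. The largest of its 4 fitted differences was 0.49 (SE 0.33, adjusted p = 0.71, limma), in EZH2-/+ against EZH2+/+ ESCs.

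OLIG1 (chromosome 21, 33070144 to 33072420), which lies 40948 bases from OLIG2 and acts in oligodendrocyte maturation, was lowest in EZH2-/- ESCs. The EZH2-/- libraries gave 0.211, 0.113 and 0.208 RPM, or 12, 6 and 7 reads. The EZH2+/+ libraries gave 0.266, 0.330 and 0.699 RPM, the EZH2-/+ libraries 0.539, 0.756 and 0.676 RPM, and the EZH2-/- +EZH2 libraries 0.180, 0.643 and 0.719 RPM. The EZH2-/- libraries lay below all EZH2+/+ and EZH2-/+ libraries and overlapped EZH2-/- +EZH2 library 1. Neither the difference from EZH2-/- +EZH2 ESCs (-1.02, SE 0.43, adjusted p = 0.25, limma) nor that from EZH2+/+ ESCs (-0.88, SE 0.43, adjusted p = 0.14, limma) passed.

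NKX6-1 (chromosome 4, 84491987 to 84498450), a ventral progenitor and pancreatic beta cell factor, was expressed in every library. It stood at 15.8, 11.1 and 7.25 RPM in EZH2+/+ libraries 1 to 3, 12.8, 6.89 and 8.98 RPM in EZH2-/+, 19.9, 13.1 and 16.3 RPM in EZH2-/-, and 15.9, 9.67 and 11.3 RPM in EZH2-/- +EZH2 ESCs. Within each library number EZH2-/- ESCs were the highest, although the groups overlapped. The difference from EZH2+/+ ESCs was 0.57 (SE 0.30, adjusted p = 0.17, limma) and passed with the library number as a block (SE 0.18, adjusted p = 0.023, limma), where 17.3% of all genes were called higher. The difference from EZH2-/- +EZH2 ESCs was 0.42 (SE 0.30, adjusted p = 0.52, limma) and did not pass with the block either (adjusted p = 0.16).

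NKX2-2 (chromosome 20, 21511010 to 21514026), the factor of the most ventral interneuron progenitors and of pancreatic endocrine cells, had 8, 36 and 11 reads in EZH2-/- libraries 1, 2 and 3, or 0.141, 0.676 and 0.327 RPM. It had 2 reads in all of the EZH2+/+ libraries, both in library 2, and 0 in EZH2-/+ and in EZH2-/- +EZH2 ESCs. Its level in EZH2-/- ESCs (0.381 ± 0.272 RPM, SD, n = 3) was at least 4.12-fold higher than in EZH2-/- +EZH2 ESCs and at least 5.96-fold higher than in EZH2-/+ ESCs, each set against the mean of its libraries' floors of 3 reads. Against EZH2+/+ ESCs the ratio of pooled reads was 24.9, with an exact 95% counting interval of 6.57 to 211 that covers counting error only. Its mean over all libraries was just under the filter. In the limma fit without a filter, over 35805 genes, it was called in EZH2-/- against EZH2-/- +EZH2 ESCs (adjusted p = 0.033, where 0.958% of genes were called higher) and against EZH2+/+ ESCs (adjusted p = 0.0090, where 6.42% were). The antisense gene NKX2-2-AS1, which lies within the span given for NKX2-2, had 5, 13 and 3 reads in the same 3 libraries. It had 0 in the other 9. Counting ignored the strand, so in the stretch they share the 2 genes cannot be told apart. NKX2-2 had more reads than NKX2-2-AS1 in each of the 3 EZH2-/- libraries. Part of the NKX2-2 reads were therefore not counted for the antisense gene.

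ATOH1 (chromosome 4, 93828753 to 93830964), the proneural factor of rhombic lip and hair cell progenitors, was highest in EZH2-/- ESCs. Its level was 0.200, 0.406 and 0.350 RPM in EZH2+/+ libraries 1 to 3 and 2.29, 2.08 and 3.29 RPM in the EZH2-/- libraries. In EZH2-/- +EZH2 ESCs it was 0.617, 1.26 and 1.80 RPM, and in EZH2-/+ ESCs 0.171, 0 and 1.92 RPM, with 108 of the 115 EZH2-/+ reads in library 3. The EZH2-/- libraries lay above all others. The log2 difference from EZH2+/+ ESCs was 2.67 (SE 0.80, adjusted p = 0.024, limma), a call that was lost when any 1 of the 6 libraries was left out (adjusted p of 0.050 to 0.074, with differences of 2.45 to 2.83) and in the fit without a filter (adjusted p = 0.096). With the library number as a block its adjusted p was 0.0065. The difference from EZH2-/- +EZH2 ESCs was 1.09 (SE 0.80, adjusted p = 0.54, limma), which did not pass.

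The other proneural genes were barely detected. NEUROG1 (chromosome 5, 135534282 to 135535949) had 1, 2 and 5 reads in EZH2+/+ libraries 1 to 3 and 0 reads in the other 9 libraries. In the fit without a filter it was called lower in EZH2-/- than in EZH2+/+ ESCs (adjusted p = 0.023, limma, where 8.97% of genes were called lower), but all group means were under the floor of 3 reads. NEUROG2 (chromosome 4, 112513516 to 112516172) had 2 reads in EZH2-/- ESCs, 1 each in EZH2+/+ and EZH2-/+ ESCs, and none with the transgene on. NEUROD1 (chromosome 2, 181673088 to 181680876), a neuronal differentiation and endocrine factor, had 6 reads in EZH2+/+, 1 in EZH2-/- and 0 in the other genotypes. It overlaps CERKL on the same strand, a gene at 0.772 RPM in EZH2+/+ ESCs and at 0.207 RPM in EZH2-/- ESCs. Any difference in NEUROG2 and NEUROD1 was not detectable at this depth.

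At the promoters, H3K27me3 was lower without EZH2 at all 9 genes, whereas the other marks differed from gene to gene. ChIP values are RPM in a window 2.5 kb either side of a start site, and for a gene with several windows the one with the most H3K27me3 in EZH2+/+ ESCs was used. All 9 promoters carried H3K27me3 in EZH2+/+ ESCs by the rule of the study (input under and H3K27me3 over 0.1 on a log2 scale of RPM per kilobase of window), against 17.5% of all gene names. The rule was applied here to 1 window per gene name, so the 6235 names that met it are not the study's own set. H3K27me3 was highest at NEUROD1 (36.9 RPM) and NEUROG1 (36.8 RPM), followed by NKX2-2 (32.0 RPM), NEUROG2 (31.1 RPM), OLIG1 (30.1 RPM), OLIG2 (27.2 RPM) and ATOH1 (17.2 RPM). NKX6-1 (11.6 RPM) and OLIG3 (10.5 RPM), the 2 genes with the most RNA reads, had the least. The median over all gene names was 1.96 RPM.

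EZH2 signal at the 9 promoters in EZH2+/+ ESCs was above the median of all gene names. The signal, from 1 library, was 6.04 RPM at NKX2-2, 4.16 at OLIG2, 4.11 at NEUROG2, 3.55 at NEUROD1, 2.41 at NKX6-1, 2.39 at both NEUROG1 and ATOH1, 2.08 at OLIG1 and 2.01 RPM at OLIG3. The median of 2.41 RPM compares with 0.290 RPM over all gene names and 0.837 RPM over the 6235 names with H3K27me3 in EZH2+/+ ESCs. NKX2-2 ranked 228th from the top of 35683 names and OLIG3 1197th. The order by EZH2 was not the order by H3K27me3: OLIG2 was the second by EZH2 and only the sixth by H3K27me3.

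The promoters of 4 genes are shown for what they hold under these windows: NEUROG1 for its H3K27me3 and CpG content, ATOH1 and NKX2-2 for the RNA in EZH2-/- ESCs, and OLIG3 as the promoter with the least H3K27me3. Each run is the 250 bases before the RefSeq start (GRCh38.p14), 5′ to 3′ on the gene's strand, with every CpG, the dinucleotide that is dense in promoters bound by PRC2, in capitals. They lie at chr5:135535965-135536214, minus strand (NEUROG1), chr4:93828503-93828752, plus strand (ATOH1), chr20:21512961-21513210, minus strand (NKX2-2) and chr6:137494395-137494644, minus strand (OLIG3). The NKX2-2 stretch belongs to a start within the span given for the gene, downstream of the start on which its ChIP window is centred, and lies inside that window. A second RefSeq start of NKX2-2, whose upstream stretch is chr20:21522690-21522939, minus strand, lies outside that window and is not shown.
NEUROG1: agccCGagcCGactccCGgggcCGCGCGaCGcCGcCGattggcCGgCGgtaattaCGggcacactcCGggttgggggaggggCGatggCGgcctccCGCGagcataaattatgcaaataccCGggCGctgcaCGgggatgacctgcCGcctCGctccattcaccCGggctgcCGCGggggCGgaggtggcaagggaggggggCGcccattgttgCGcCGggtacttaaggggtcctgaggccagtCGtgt
ATOH1: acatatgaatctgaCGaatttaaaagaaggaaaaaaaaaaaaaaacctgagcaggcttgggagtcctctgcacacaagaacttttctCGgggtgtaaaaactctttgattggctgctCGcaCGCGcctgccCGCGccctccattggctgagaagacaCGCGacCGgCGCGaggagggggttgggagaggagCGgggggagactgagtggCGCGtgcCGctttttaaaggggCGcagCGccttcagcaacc
NKX2-2: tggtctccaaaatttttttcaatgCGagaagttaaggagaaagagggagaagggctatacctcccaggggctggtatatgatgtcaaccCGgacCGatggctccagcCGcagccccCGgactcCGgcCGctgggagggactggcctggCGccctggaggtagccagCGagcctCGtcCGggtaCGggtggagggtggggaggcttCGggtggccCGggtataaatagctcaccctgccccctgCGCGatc
OLIG3: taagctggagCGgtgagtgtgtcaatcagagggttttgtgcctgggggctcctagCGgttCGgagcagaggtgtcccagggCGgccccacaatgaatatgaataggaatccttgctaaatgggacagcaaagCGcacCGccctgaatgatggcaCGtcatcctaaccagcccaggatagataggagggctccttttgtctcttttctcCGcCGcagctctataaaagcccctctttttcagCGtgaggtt
These stretches hold 30, 18, 16 and 10 CpGs. RefSeq promoters of 300 bases (the 250 above and 50 past the start) were matched for 7 of the 9 genes, all but OLIG1 and OLIG2, and 35116 promoters were in the table. Their CpG number was 35 at NEUROG1, 31 at NEUROD1, 24 at NKX6-1, 22 at ATOH1, 18 at NKX2-2 (35 at its second RefSeq start) and 10 at both NEUROG2 and OLIG3, against a median of 14. The ratio of observed to expected CpG was highest at NEUROG1 (0.985) and lowest at OLIG3 (0.463), against a median of 0.579. NEUROG2 shared the low CpG number of OLIG3 but had 31.1 RPM of H3K27me3 in EZH2+/+ ESCs against 10.5 RPM there. The bHLH binding motif CAGCTG (its own reverse complement) was in 0 of these 7 promoters, was in the second NKX2-2 promoter, and was in 17.95% of all promoters. The motif CAGATG, read on both strands (as CATCTG on the other), was in 1 of the 7, at NKX6-1, and in 14.7% of all. The 6 letters TATAAA, on both strands, were found at NKX2-2 and OLIG3 and in 11.5% of all promoters.

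In EZH2-/- ESCs H3K27me3 was lower at each of the 9 promoters. It stood at 4.69 RPM at NEUROD1, 4.06 at OLIG2, 3.09 at NEUROG1, 2.55 at NEUROG2, 2.22 at NKX2-2, 1.41 at OLIG3, 1.26 at NKX6-1, 1.16 at OLIG1 and 0.679 RPM at ATOH1. The log2 change against EZH2+/+ ESCs ran from -4.58 at OLIG1 and -4.48 at ATOH1 to -2.71 at OLIG2, with a median of -3.53, against -0.94 over all gene names and -3.67 over names with H3K27me3 in EZH2+/+ ESCs. All 9 were lower by at least 1 on the log2 scale, as were 48.0% of all names and 98.3% of the names with H3K27me3. Against EZH2-/- +EZH2 ESCs the median was -3.57 and all 9 were again lower by at least 1, where 37.3% of all names and 97.3% of names with H3K27me3 were. RPM gives a share of each library's reads, so a loss of the mark from the whole genome is not measured on this scale.

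What remained of the H3K27me3 signal in EZH2-/- ESCs differed among the genes. It was 5.81 times the input at OLIG2, 3.54 times at NEUROG1, 3.37 times at NEUROD1, 2.40 times at NKX2-2 and 2.16 times at NEUROG2. At NKX6-1 (1.25 times) and OLIG3 (1.09 times) it was close to input, and at OLIG1 (0.741 times) and ATOH1 (0.618 times) it was below input. It was at least 2 times input at 5 of the 9 genes and at 6.93% of the names with H3K27me3 in EZH2+/+ ESCs, with a median ratio of 0.620 over the latter. OLIG2 was thus the highest of the 9 and its neighbour OLIG1 was below input, on 56.1 and 16 reads per ChIP library, and the input at OLIG2 was the lowest of the 9 (0.699 RPM, 12.4 reads).

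**Figure D2:**
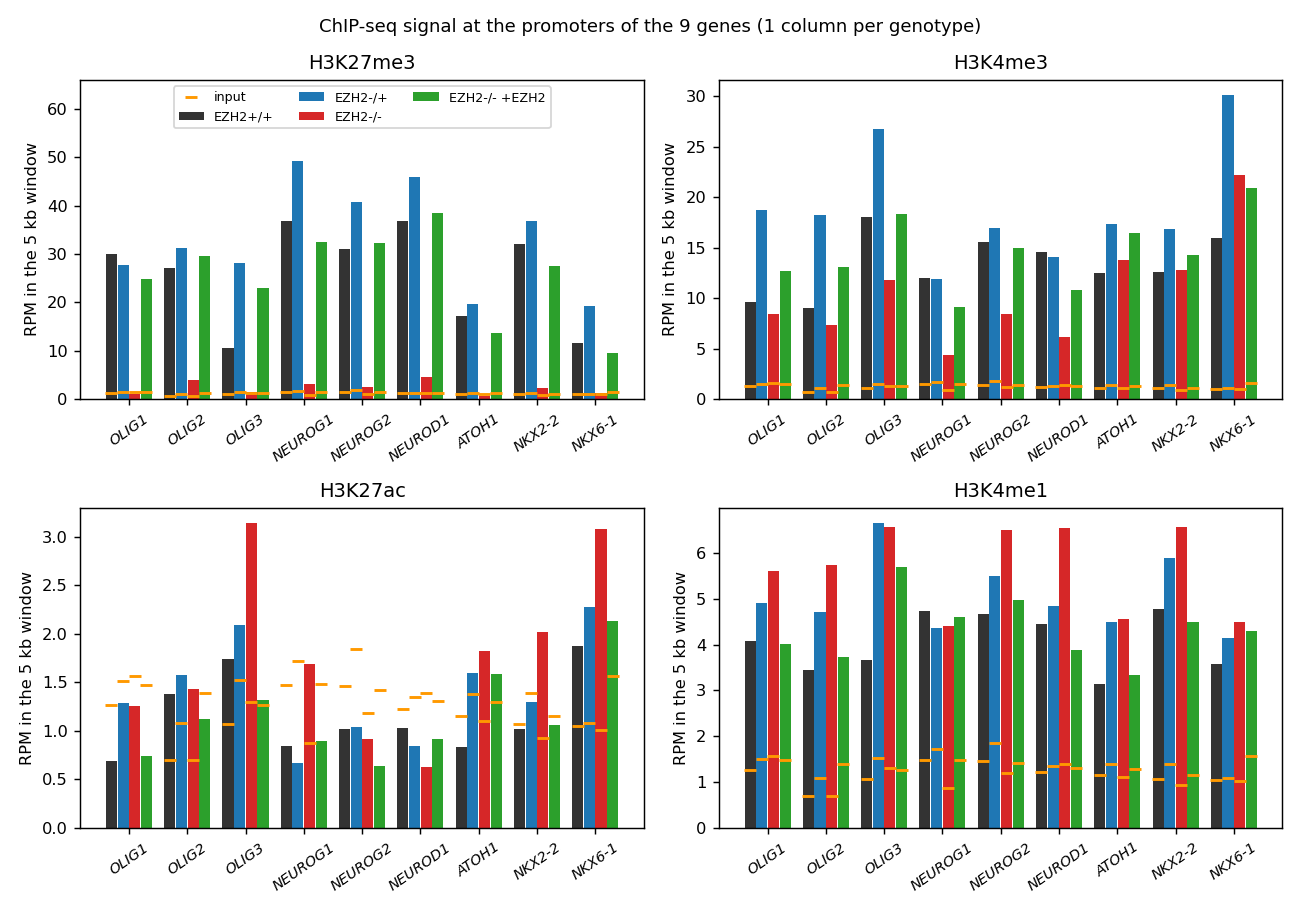
H3K27me3, H3K4me3, H3K27ac and H3K4me1 (RPM in the 5 kb window, y axis, from 0) at the promoters of the 9 genes (x axis) in the 4 genotypes (bar colours), with input as an orange dash. Each bar is 1 deposited column, with no error bar; H3K27me3 was near input in EZH2-/- ESCs at all but OLIG2, NEUROG1, NEUROG2, NEUROD1 and NKX2-2, and H3K27ac exceeded input at 3 to 6 of the 9 genes.

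With the DOX-induced transgene on, H3K27me3 was present at all 9 promoters. In EZH2-/- +EZH2 ESCs it was 38.4 RPM at NEUROD1, 32.4 at NEUROG1, 32.2 at NEUROG2, 29.6 at OLIG2, 27.5 at NKX2-2, 24.9 at OLIG1, 23.0 at OLIG3, 13.6 at ATOH1 and 9.56 RPM at NKX6-1. Set against EZH2+/+ ESCs, 8 of the 9 lay between -0.34 and 0.12 on the log2 scale. OLIG3 was higher by 1.12, and 1.18% of all gene names were higher by at least 1. In EZH2-/+ ESCs, H3K27me3 was 49.1 RPM at NEUROG1, 46.0 at NEUROD1, 40.8 at NEUROG2, 36.7 at NKX2-2, 31.2 at OLIG2, 28.1 at OLIG3, 27.7 at OLIG1, 19.6 at ATOH1 and 19.2 RPM at NKX6-1. It was above EZH2+/+ ESCs at 8 of the 9 genes (median change 0.32, against -0.15 over all names), with OLIG1 the exception (-0.12). OLIG3 again differed most (1.40), and 0.653% of all names were higher by at least 1.

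OLIG3 had its lowest H3K27me3 among the EZH2-containing genotypes where its RNA was highest. With EZH2 present, H3K27me3 was 10.5 RPM beside 67.3 RPM of RNA in EZH2+/+ ESCs, 28.1 beside 11.2 RPM in EZH2-/+ ESCs and 23.0 beside 7.86 RPM in EZH2-/- +EZH2 ESCs. In EZH2-/- ESCs, H3K27me3 was 1.41 RPM and RNA 14.2 RPM, so that the genotype with the least H3K27me3 did not have the most RNA. H3K4me3 at OLIG3 was 18.1, 26.8, 11.8 and 18.3 RPM in the same order of genotypes (EZH2+/+ first, the transgene last), and H3K27ac was 1.74, 2.09, 3.14 and 1.31 RPM.

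**Figure D3:**
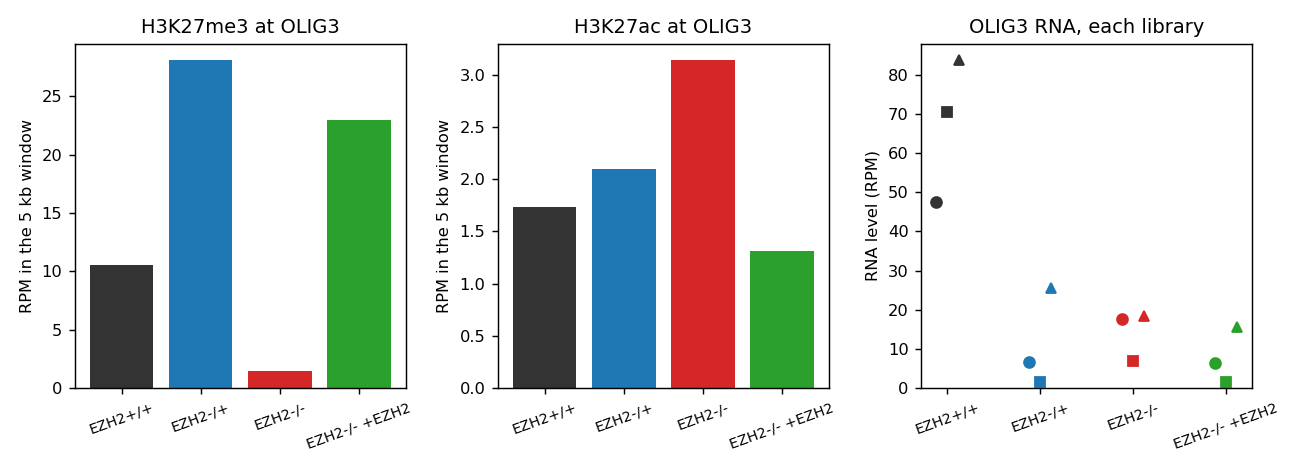
OLIG3 in the 4 genotypes (x axis): H3K27me3 and H3K27ac in its promoter window (RPM, bars from 0, 1 column each) and RNA level (RPM) in libraries 1, 2 and 3 (circle, square and triangle). H3K27me3 was 10.5 RPM in EZH2+/+ ESCs, where RNA was highest, and H3K27ac was highest, at 3.14 RPM, in EZH2-/- ESCs.

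The EZH2+/+ column of H3K4me3 was the shallowest. In the windows used, H3K4me3 in EZH2-/- ESCs was lower than in EZH2+/+ ESCs at the neurogenin, NEUROD1 and OLIG promoters. It was not lower there at the homeobox genes and ATOH1. It went from 11.97 RPM in EZH2+/+ to 4.34 RPM in EZH2-/- ESCs at NEUROG1 (log2 change -1.44), from 14.5 to 6.12 RPM at NEUROD1 (-1.24) and from 15.6 to 8.44 RPM at NEUROG2 (-0.88). At OLIG3 it was 18.1 and 11.8 RPM, at OLIG2 8.996 and 7.32 RPM, and at OLIG1 9.59 and 8.41 RPM. In the OLIG1 window centred on its listed start, H3K4me3 was 8.26 and 8.36 RPM and so not lower. ATOH1 (12.5 and 13.8 RPM), NKX2-2 (12.6 and 12.8 RPM) and NKX6-1 (16.01 and 22.2 RPM) were not lower. NEUROG1 and NEUROD1 were lower by at least 1, as were 12.6% of all gene names and 4.14% of names with H3K27me3. Against EZH2-/- +EZH2 ESCs, which were sequenced most deeply for this mark, H3K4me3 was lower at 8 of the 9 genes, by 1.06 on the log2 scale at NEUROG1 (9.17 RPM in EZH2-/- +EZH2), where 0.947% of all names were lower by at least 1. It was lower by 0.83 at OLIG2, 0.82 at NEUROG2, 0.81 at NEUROD1, 0.63 at OLIG3 and 0.59 at OLIG1. The log2 change was -0.25 at ATOH1, -0.16 at NKX2-2 and 0.08 at NKX6-1, the 1 gene that was higher. The median was -0.63 over the 9 genes, 0.05 over all names and -0.10 over names with H3K27me3. In EZH2-/+ ESCs H3K4me3 at OLIG1 was 18.7 RPM and at OLIG2 18.3 RPM, OLIG2 alone being higher than in EZH2+/+ ESCs by at least 1 (1.01, where 5.19% of all names were).

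**Figure D4:**
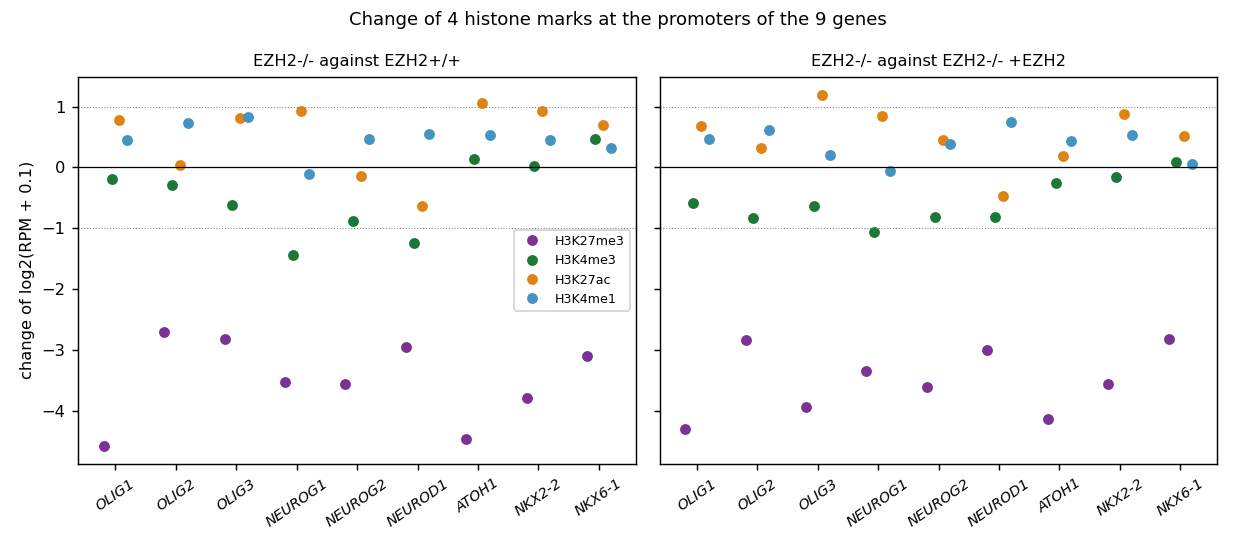
Change of log2(RPM + 0.1) of 4 histone marks (colours) at the promoters of the 9 genes (x axis), for EZH2-/- against EZH2+/+ ESCs on the left and against EZH2-/- +EZH2 ESCs on the right. The dotted lines mark a change of 1 in either direction; H3K27me3 lay below -2.7 at every gene in both panels, and H3K4me3 was lowest at NEUROG1 in both.

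H3K27ac stayed low at the 9 promoters. In the windows used it exceeded input at 3 genes in EZH2+/+ ESCs (OLIG2, OLIG3 and NKX6-1) and at 4 in EZH2-/+ ESCs. It exceeded input at 6 in EZH2-/- ESCs and at 3 with the transgene on, while 70.7% to 76.6% of all gene names did. In EZH2-/- ESCs it was highest at OLIG3 (3.14 RPM) and NKX6-1 (3.08 RPM), followed by NKX2-2 (2.01 RPM) and ATOH1 (1.82 RPM), and lowest at NEUROD1 (0.629 RPM). Against EZH2+/+ ESCs ATOH1 alone was higher by at least 1 in these windows (1.05, from 0.826 RPM). So were 9.18% of all names and 23.2% of names with H3K27me3. Against EZH2-/- +EZH2 ESCs OLIG3 alone was (1.20), as were 3.85% of all names and 18.5% of names with H3K27me3. NKX2-2 differed from both by 0.93 and 0.87. OLIG1 also has a window centred on its listed start. There EZH2+/+ ESCs had 0.810 RPM of H3K27ac, and EZH2-/- ESCs had 1.95 RPM beside an input of 1.61 RPM. In that window OLIG1 was thus above input in EZH2-/- ESCs, and higher than in EZH2+/+ ESCs by at least 1. The 6 genes above input and ATOH1 as the only such rise therefore depend on the windows used. NEUROD1, the promoter with the most H3K27me3 left in RPM, had H3K27ac below input in every genotype (0.846 times input in EZH2+/+, 0.625 in EZH2-/+, 0.452 in EZH2-/- and 0.6999 with the transgene on).

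H3K4me1, a mark of enhancers and of the flanks of active promoters, lay above input at all 9 genes in every genotype. In EZH2-/- ESCs it was higher than in EZH2+/+ ESCs at 8 of the 9, from 0.32 on the log2 scale at NKX6-1 to 0.83 at OLIG3 (3.67 and 6.58 RPM), and it was 4.74 and 4.40 RPM at NEUROG1, the exception. The median change was 0.47, against 0.11 over all gene names and 0.36 over names with H3K27me3. No member moved by 1 or more in any of the 4 comparisons of this mark.

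Genes of the same families and pathways were read from lists chosen by name. A list of 16 other bHLH genes, drawn up as proneural and neuronal, also held the mesoderm gene MSGN1, and 9 of the 16 were tested. In EZH2-/- against EZH2-/- +EZH2 ESCs 3 rose, MSGN1 among them, and none fell (median 0.75, against 0.02 over all genes). The shares of all genes were 2.63% called higher and 0.524% lower. MSGN1, which specifies presomitic mesoderm, was at 1.36 ± 0.938 RPM (SD, n = 3) in EZH2-/- ESCs and at 0 in all EZH2-/- +EZH2 libraries (adjusted p = 0.0050, limma). BHLHE22, a repressor in neurons, was at 0.761 ± 0.420 and 0.0489 ± 0.0629 RPM (log2 fold change 2.48, adjusted p = 0.012, limma). ATOH8 was at 1.52 ± 0.513 and 0.363 ± 0.213 RPM (1.89, adjusted p = 0.044, limma). Against EZH2+/+ ESCs 2 of the 9 rose, MSGN1 and BHLHE22, where 12.6% of all genes were called higher, and the median was -0.32. Median-ratio scaling left these counts as they were.

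Among 14 bHLH partners and inhibitors, 13 were tested. In EZH2-/- against EZH2+/+ ESCs 4 rose and 4 fell (3 with median-ratio scaling), against 12.6% of all genes higher and 18.8% lower, and against EZH2-/- +EZH2 ESCs 1 rose, against 2.63% of all genes. The median changes were -0.22 and 0.29. HEY2 (10.5 ± 2.89 against 1.596 ± 0.120 RPM in EZH2+/+, adjusted p = 4.6e-05, limma) and HEY1 (3.67 ± 1.91 against 0.715 ± 0.0327 RPM, adjusted p = 0.0023, limma), both Notch-responsive repressors, rose against EZH2+/+ ESCs. The inhibitor of bHLH binding ID1 rose (57.2 ± 15.1 against 22.8 ± 6.53 RPM, adjusted p = 0.0010, limma) and its relative ID2 fell (18.7 ± 2.02 against 65.5 ± 3.27 RPM, adjusted p = 0.0054, limma). None of these 4 passed against EZH2-/- +EZH2 ESCs (adjusted p of 0.12 to 0.70, limma).

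In the Notch pathway 13 of 14 genes were tested, and DLL3, a Notch ligand and a target of proneural factors, was the 1 gene that rose against EZH2-/- +EZH2 ESCs, where 2.63% of all genes did (median of the list 0.27). Against EZH2+/+ ESCs 1 rose and 2 fell, where 12.6% of all genes were called higher and 18.8% lower. DLL3 was at 22.3 ± 9.22 RPM in EZH2-/- ESCs against 3.32 ± 0.536 RPM with the transgene on (2.63, adjusted p = 0.0026, limma). It rose against EZH2+/+ ESCs as well (4.59 ± 0.808 RPM, adjusted p = 0.00067, limma). MFNG, a Notch glycosyltransferase, fell against EZH2+/+ ESCs (0.557 ± 0.283 against 6.10 ± 1.16 RPM, adjusted p = 0.00031, limma), as did DTX1 (adjusted p = 0.029, limma). Among 17 targets of proneural factors, 3 rose and none fell against EZH2-/- +EZH2 ESCs, with a median of 1.08, against 2.63% of all genes called higher and 0.524% lower. Against EZH2+/+ ESCs 4 rose (5 with median-ratio scaling) and 1 fell, with a median of 0.20, against 12.6% of all genes higher and 18.8% lower. ISL1, a LIM homeobox factor of motor neurons and cardiac progenitors, rose in both comparisons (1.38 ± 0.948 RPM in EZH2-/- ESCs against 0.0664 ± 0.0484 RPM with the transgene on, adjusted p = 0.0075, limma). DCX, a neuronal microtubule gene, fell against EZH2+/+ ESCs (2.85 ± 1.48 against 9.66 ± 2.89 RPM, adjusted p = 0.0013, limma). EBF2 rose against EZH2+/+ ESCs (7.94 ± 2.22 against 0.154 ± 0.111 RPM, adjusted p = 0.0046, limma).

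Of the 12 genes of the Sonic hedgehog pathway, all tested, none was called in EZH2-/- against EZH2-/- +EZH2 ESCs, 5 fell against EZH2+/+ ESCs, and 6 (5 with median-ratio scaling) fell in EZH2-/- +EZH2 and 2 in EZH2-/+ ESCs against the same EZH2+/+ libraries. The shares of all genes called lower were 18.8%, 6.9% and 0.966% in these 3 comparisons with EZH2+/+ ESCs, and the list's medians were -0.35, -0.60 and -0.57. The co-receptor BOC was at 37.1 ± 12.7 RPM in EZH2+/+ ESCs and at 6.28 ± 1.21 RPM in EZH2-/- ESCs (-2.49, adjusted p = 0.00043, limma), the effector GLI3 at 39.6 ± 14.7 and 10.2 ± 1.75 RPM (-1.90, adjusted p = 0.00043, limma), and the co-receptors GAS1 (adjusted p = 0.0029, limma) and CDON (adjusted p = 0.00089, limma) fell as well. Of 30 other neural tube factors, 18 were tested, 7 rose and none fell against EZH2-/- +EZH2 ESCs (median 1.21), where 2.63% of all genes were called higher. Against EZH2+/+ ESCs 4 rose and 5 fell (median 0.05), where 12.6% were called higher and 18.8% lower. LHX1 rose in both (12.2 ± 5.72 RPM in EZH2-/-, 0.709 ± 0.811 in EZH2-/- +EZH2 and 0.615 ± 0.602 RPM in EZH2+/+ ESCs, adjusted p = 0.027 and 0.0034, limma), as did EVX1 (adjusted p = 0.023 and 0.011) and GATA2 (adjusted p = 0.033 and 0.0025). LHX5, which marks dorsal and forebrain progenitors, fell against EZH2+/+ ESCs (0.0558 ± 0.0167 against 4.86 ± 4.85 RPM, adjusted p = 0.0024, limma). All 30 of these promoters carried H3K27me3 in EZH2+/+ ESCs, with a median of 40.4 RPM, as did 11 of the 16 other bHLH genes.

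Markers of other lineages also differed between the genotypes, and not all of them differed between EZH2-/- and EZH2-/- +EZH2 ESCs. The 8 endoderm markers summed to 24.3 to 51.2 RPM per library in EZH2+/+ and 166 to 470.4 RPM in EZH2-/- ESCs, 16.2 to 458 RPM in EZH2-/+ and 26.0 to 56.2 RPM in EZH2-/- +EZH2 ESCs. The 8 mesoderm markers with a measurement summed to 56.7 to 92.4 RPM in EZH2+/+, 57.8 to 128 in EZH2-/+, 205 to 274 in EZH2-/- and 77.5 to 211 RPM in EZH2-/- +EZH2 ESCs, and no marker of either list was at 0 in any genotype. Against EZH2-/- +EZH2 ESCs 2 of 8 endoderm and 2 of 8 mesoderm markers rose and none fell, against 2.63% of all genes called higher and 0.524% lower. The 10 pancreatic and endocrine progenitor markers summed to 6.53 to 9.33 RPM in EZH2-/- and 1.598 to 2.60 RPM in EZH2+/+ ESCs. They summed to 1.33 to 3.13 RPM in EZH2-/+ and 3.12 to 4.835 RPM in EZH2-/- +EZH2 ESCs. Of these markers 1 of 4 tested rose against EZH2-/- +EZH2 ESCs, where 2.63% of all genes did. INS and GCG were at 0 in every library. The 9 neuron markers summed to 154 to 202 RPM in EZH2-/- and 235 to 261 RPM in EZH2+/+ ESCs, with MAP2 at 3.04 ± 1.43 and 62.6 ± 14.9 RPM (adjusted p = 5.9e-05, limma). Their sum was 192 to 199.8 RPM in EZH2-/+ and lowest, at 134 to 151 RPM, in EZH2-/- +EZH2 ESCs. MAP2 was at 8.52 ± 2.86 RPM with the transgene on. It fell there against EZH2+/+ ESCs (adjusted p = 0.0027, limma) and did not pass between EZH2-/- and EZH2-/- +EZH2 ESCs (adjusted p = 0.10, limma). Of 8 neuron markers tested in EZH2-/- ESCs, 0 rose and 2 fell against EZH2+/+ ESCs, where 12.6% and 18.8% of all genes did. Against EZH2-/- +EZH2 ESCs 1 rose and 0 fell, where 2.63% and 0.524% did. The marker that rose was ELAVL4 (1.00 ± 0.226 against 0.243 ± 0.0545 RPM, adjusted p = 0.018, limma). The 6 oligodendrocyte lineage markers summed to 87.2 to 94.0 RPM in EZH2-/- and 92.3 to 121 RPM in EZH2+/+ ESCs, with 2 of 6 higher and 1 lower (0 with median-ratio scaling), against 12.6% and 18.8% of all genes, PDGFRA rising from 3.44 ± 1.28 to 19.5 ± 5.72 RPM (adjusted p = 0.00069, limma). Their sum was 64.6 to 98.65 RPM in EZH2-/+ and 79.0 to 88.6 RPM in EZH2-/- +EZH2 ESCs. PDGFRA was at 10.79 ± 2.495 RPM with the transgene on. It rose there against EZH2+/+ ESCs (adjusted p = 0.020, limma) and did not pass between EZH2-/- and EZH2-/- +EZH2 ESCs (adjusted p = 0.31, limma). PDGFRA is not a marker of this lineage alone, as the study used its protein, with KDR, to define early mesoderm. The 7 fibroblast markers summed to 287 to 529.9 RPM in EZH2-/-, 286 to 361 RPM in EZH2+/+, 247 to 305 RPM in EZH2-/+ and 231.5 to 309 RPM in EZH2-/- +EZH2 ESCs. Of these markers 2 of 6 tested rose against EZH2-/- +EZH2 ESCs, where 2.63% of all genes did. COL3A1 was at 53.8 ± 52.3 RPM in EZH2-/- ESCs against 0.226 ± 0.324 RPM with the transgene on (adjusted p = 0.0095, limma). Against EZH2+/+ ESCs 3 rose and 1 fell, where 12.6% and 18.8% of all genes did. COL1A2 was the 1 that fell (89.5 ± 32.1 against 181.7 ± 20.6 RPM, adjusted p = 0.0044, limma), and it was at 86.0 ± 15.85 RPM with the transgene on. The part of these cell types in the levels of ATOH1, NKX2-2 and OLIG1 was not tested.

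Profiles most like those of the members were sought among 17071 genes that averaged 0.5 RPM or more, by Pearson's r of log2(RPM + 0.1) over the 12 libraries, which share genotypes and library numbers. ATOH1 was most like TFAP2C (r = 0.954), the factor of germline and trophoblast, which was at 11.2, 10.9, 23.7 and 18.2 RPM from EZH2+/+ through EZH2-/+ and EZH2-/- ESCs to those with the transgene on, and AC007326.1 (r = 0.943). OLIG3 was most like ZNF16 (r = 0.937) and CALCOCO1 (r = 0.924), NKX6-1 like TMEM164 (r = 0.886) and PRRX1 (r = 0.868), OLIG1 like MRPS10 (r = 0.908) and TMEM126B (r = 0.902), and OLIG2 like NPY5R (r = 0.803) and SLC27A6 (r = 0.796).

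Genes within 50 kb of the 9 are given by their levels alone. CXCL14, 34730 bases from NEUROG1, was at 1.73 RPM in EZH2+/+ ESCs and at 3.71 RPM in EZH2-/- ESCs, while NEUROG1 was at 0 in the latter. ZGRF1, 23161 bases from NEUROG2, was at 19.9 RPM in EZH2+/+ ESCs and at 10.1 RPM in EZH2-/- ESCs. RP5-984P4.6, 8076 bases from NKX2-2, was at 2.68 RPM in EZH2+/+, 2.01 in EZH2-/+, 0.724 in EZH2-/- ESCs and 1.87 RPM with the transgene on, lowest in the genotype where NKX2-2 was highest. LINC00945, between OLIG2 and OLIG1, was at 0 in every library, and AP000282.2, which overlaps both on the other strand, was at or under 0.0298 RPM in each genotype.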

How the data were processed

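RNA-seq (12 libraries, 3 for each of 4 genotypes) and native ChIP-seq (20 histone and input columns, EZH2 in 1 more) were analysed from the tables the authors deposited in log2 RPM. Per the labels and methods, reads were trimmed (Trim Galore 0.4.0) and aligned to GRCh38 (TopHat2 2.0.12 or Bowtie2 2.2.5); RNA reads were counted per gene in SeqMonk without regard to strand, and ChIP reads, extended and without duplicates, within 2.5 kb of start sites. Values were returned to RPM, and genes without a read, deposited as 0.9 of 1 read, were set to 0. Below 1000 reads, 100% of RNA values were whole reads (tolerance 0.02). Genes were tested with limma 3.58.1 (R 4.3.3, trend) on log2(RPM + 0.1) over all 12 libraries, without a block. Same-numbered libraries of different genotypes deviated together in all 18 pairs of libraries (r = 0.107 to 0.560, mean 0.332), so a fit with the number as a block is given where it changes a call. On simulated data with 200 of 20608 genes changed by 2 on the log2 scale, 80.5% were called, with 12 false calls. The simulated noise was independent between libraries, without the shared deviations above, so these rates need not hold for the unblocked fit on these data. ChIP changes of log2(RPM + 0.1) carry no test, and the number of libraries behind a ChIP column was read from the steps of its values, which differ from the replicates stated in the methods. Promoter sequences came from RefSeq (GRCh38.p14). Named genes were the 9 members, EZH2, up to 4 genes per list with the largest change among those called against EZH2-/- +EZH2 or EZH2+/+ ESCs, the 2 genes most like each member of at least 0.1 RPM, and neighbours within 50 kb. Members and lists were chosen with earlier results of these data known. Alternatives covered the pseudocount, filter, scaling, block, libraries, window and test. Depth sets a floor of 3 reads, 0.0528 to 0.120 RPM, and intervals and floors cover counting error only. The level of 1 marker gene is not reported here.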

Additional observations from a re-analysis of the deposited data

How the results depend on the processing

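The planned edgeR and DESeq2 fits were not run because the values are log2 RPM; limma voom on recovered reads, the fit without the libraries numbered 3 and the deposited value for genes without a read were chosen after seeing the data. Members called in EZH2-/- against EZH2-/- +EZH2 ESCs (0) became 1 without a filter and with the deposited value, in both cases NKX2-2. Against EZH2+/+ ESCs the 1 member called in EZH2-/- ESCs was ATOH1. OLIG3 was called beside it with a pseudocount of 1 RPM, with the 2 groups only, with voom and without libraries numbered 3. With the deposited value NKX2-2 was called beside ATOH1. Without a filter 2 members were called, NKX2-2 and NEUROG1, and ATOH1 was lost. With the replicate block 3 were called, ATOH1, OLIG3 and NKX6-1. In EZH2-/+ ESCs 0 became 1 with the block and without libraries numbered 3, and in EZH2-/- +EZH2 ESCs 1 became 0 without a filter and 2 with the 2 groups only. The block changed no other member's call. Leaving out 1 library gave 0, 0, 0 to 1 and 0 to 1 members called in these 4 comparisons.

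Genes called higher and lower in EZH2-/- against EZH2-/- +EZH2 ESCs (542 and 108) were 343 and 59 without a filter, 221 and 67 from 1 RPM, 1276 and 661 with the block and 259 and 41 with voom, with 52 lower for the 2 groups only and 241 higher without libraries numbered 3. In EZH2-/+ against EZH2+/+ ESCs (37 and 199) they were 2 and 44 without a filter, 57 and 125 with median-ratio scaling, 148 and 446 with the block, 0 and 10 with the 2 groups only, 16 and 122 with voom and 360 and 874 without libraries numbered 3, with 131 lower from 1 RPM. In EZH2-/- +EZH2 against EZH2+/+ ESCs (701 and 1422) they were 1290 and 3321 with the block and 1642 and 3211 without libraries numbered 3, with 463 higher without a filter and 1030 and 877 with median-ratio scaling, which turned the split, as it did in EZH2-/- against EZH2+/+ ESCs (3378 and 2826). Leaving out 1 library gave 123 to 644 higher and 14 to 137 lower in EZH2-/- against EZH2-/- +EZH2 ESCs, and against EZH2+/+ ESCs 1796 to 2294 and 2343 to 3374 in EZH2-/- (2593 and 3870 with all), 7 to 151 and 57 to 451 in EZH2-/+, and 328 to 776 and 551 to 1283 in EZH2-/- +EZH2 ESCs. The cause was not tested.

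Signs turned only for differences that were not called. OLIG2 ran from -0.35 to 0.14 in EZH2-/- against EZH2-/- +EZH2 ESCs over left-out libraries, from -0.29 to 0.21 against EZH2+/+ ESCs (0.048 with median-ratio scaling), and from -0.22 to 0.29 in EZH2-/- +EZH2 against EZH2+/+ ESCs (0.00023 with a pseudocount of 1, 0.14 with median-ratio scaling, 0.0016 with voom). In EZH2-/+ against EZH2+/+ ESCs ATOH1 ran from -1.31 to 0.86 (0.20 with a pseudocount of 1) and NKX6-1 from -0.52 to 0.042. In EZH2-/- +EZH2 against EZH2+/+ ESCs NKX6-1 ran from -0.14 to 0.42 (-0.094 without libraries numbered 3) and OLIG1 from -0.14 to 0.64. The median H3K4me3 change of the 9 genes in EZH2-/- +EZH2 against EZH2+/+ ESCs was 0.43 when centred on names without H3K27me3, against 0.19.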
